A study of Mus musculus with 4 samples.

Results

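Regions of open chromatin at the ends of a protein-coding gene were examined in a mouse fibroblast line at the first day of its conversion towards heart cells. Overlapping peaks (by 1 bp or more) of the 4 ATAC-seq libraries on chromosomes 1 to 19 and X gave 90202 merged regions, and the 12547 regions within 1 kb of the start or end of exactly 1 protein-coding gene were kept, 13.9% of all. Another 2215 regions lay within 1 kb of ends of 2 or more protein-coding genes, and 75440 lay at no such end. The members were chosen by position alone, without regard to the siRNA or to the height of the peaks. Gene ends were those of RefSeq on GRCm38.p6, the assembly of mm10. Each gene counted with its outermost start and end only. A region at a transcription start more than 1 kb inside these was not a member for that gene. A gene without a member may thus still have an open start. The name "gene end" covers both sides of a gene: of the 9925 members whose gene has a known strand here, 8140 lay nearer to the transcription start and 1785 nearer to the transcript's end, and for 2622 members the side was not determined. Non-coding genes were not part of the choice, and 1812 members (14.4%) also lay within 1 kb of the end of a non-coding gene.

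The libraries came from the line iMGT-Myh6-eGFP-MEF, mouse embryonic fibroblasts that express Mef2c, Gata4 and Tbx5, factors of heart development, when doxycycline is added. The name of the line also holds an eGFP reporter of Myh6, a myosin heavy chain of the heart. Cells were transfected with an siRNA against Chst7 (siChst7, 2 libraries) or with a control siRNA (siControl, 2 libraries). Both groups received doxycycline at 1 μg/mL on the following day and were frozen at day 1, so all 4 libraries share the induction of the 3 factors. The line is a single engineered fibroblast line, and no fibroblast library without doxycycline is part of the comparison. Chst7 encodes a sulfotransferase that adds sulfate to chondroitin sulfate chains. The labels call the replicates biological without saying whether they were separate cultures, so differences are measured against the spread between these libraries only.

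ATAC-seq uses the transposase Tn5, which cuts and tags DNA where it is free of tightly bound nucleosomes. Promoters of transcribed genes usually carry such a nucleosome-depleted stretch just upstream of the transcription start. In mammals many promoters, above all those of genes used in every cell, lie in CpG islands, which tend to be open in most cell types, whereas CpG-poor promoters are more often open in particular tissues. The downstream end of a gene has no such standing gap, and open sites there are often enhancers or the starts of other transcripts.

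Promoters of 6 member genes show the range of sequence behind these calls. Each holds 250 bases before to 50 after the listed start, from RefSeq (GRCm38.p6), written from 5′ to 3′ on the strand of the gene. Capitals mark matches, on either strand, to any of 9 motifs: the GC box GGGCGG of Sp and Klf factors, the CCAAT box of NF-Y, the TATA box TATAAA, the ETS core CCGGAAG, the E-box CACGTG, the CRE TGACGTCA, the AP-1 site TGANTCA, the TEAD site GGAATG and the GATA site AGATAA. Matches that touch or overlap run on in capitals, as the CCAAT box and the AP-1 site of Hspa5 do. Hspa5 (the chaperone BiP of the endoplasmic reticulum, chr2:34771840-34772139, plus strand) and Cdk1 (the kinase that drives mitosis, chr10:69352863-69353162, minus strand) are shown for their CpG-rich promoters under regions of very high rank in all 4 libraries. Chst7 (chrX:20059320-20059619, plus strand) is the target of the siRNA, and Myh6 (chr14:54966558-54966857, minus strand) is shown as a CpG-poor promoter under a merged region called in all 4 libraries. Ccr1 (a chemokine receptor, chr9:123968643-123968942, minus strand) and Fbln1 (the matrix protein fibulin-1, chr15:85205699-85205998, plus strand) are the promoters under 1 region called only with siChst7 and 1 called only with siControl.
Hspa5: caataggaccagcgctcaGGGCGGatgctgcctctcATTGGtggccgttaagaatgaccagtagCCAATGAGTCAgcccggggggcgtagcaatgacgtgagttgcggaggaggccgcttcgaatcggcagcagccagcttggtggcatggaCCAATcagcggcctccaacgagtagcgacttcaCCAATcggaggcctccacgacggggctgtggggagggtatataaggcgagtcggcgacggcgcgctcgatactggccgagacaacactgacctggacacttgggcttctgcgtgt
Cdk1: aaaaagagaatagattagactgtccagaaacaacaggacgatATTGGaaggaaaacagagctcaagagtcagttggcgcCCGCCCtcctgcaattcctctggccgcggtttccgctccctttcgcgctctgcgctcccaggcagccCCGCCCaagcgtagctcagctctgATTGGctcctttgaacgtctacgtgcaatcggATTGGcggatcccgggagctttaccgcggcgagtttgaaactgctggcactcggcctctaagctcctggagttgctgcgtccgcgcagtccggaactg
Chst7: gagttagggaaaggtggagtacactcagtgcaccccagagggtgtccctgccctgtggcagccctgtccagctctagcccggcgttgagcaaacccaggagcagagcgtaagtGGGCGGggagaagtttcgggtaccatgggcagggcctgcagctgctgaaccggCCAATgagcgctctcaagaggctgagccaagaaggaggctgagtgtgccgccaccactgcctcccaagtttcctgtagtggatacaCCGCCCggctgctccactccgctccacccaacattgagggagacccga
Myh6: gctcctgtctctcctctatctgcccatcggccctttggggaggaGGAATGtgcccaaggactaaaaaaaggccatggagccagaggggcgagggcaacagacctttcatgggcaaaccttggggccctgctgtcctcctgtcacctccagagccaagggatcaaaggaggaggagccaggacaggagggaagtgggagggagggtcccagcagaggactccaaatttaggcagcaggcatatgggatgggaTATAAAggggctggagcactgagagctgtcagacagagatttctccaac
Ccr1: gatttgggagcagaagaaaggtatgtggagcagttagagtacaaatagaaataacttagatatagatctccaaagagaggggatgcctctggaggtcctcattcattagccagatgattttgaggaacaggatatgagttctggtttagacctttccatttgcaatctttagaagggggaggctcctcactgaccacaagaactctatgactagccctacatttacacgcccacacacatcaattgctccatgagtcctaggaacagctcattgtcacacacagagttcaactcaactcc
Fbln1: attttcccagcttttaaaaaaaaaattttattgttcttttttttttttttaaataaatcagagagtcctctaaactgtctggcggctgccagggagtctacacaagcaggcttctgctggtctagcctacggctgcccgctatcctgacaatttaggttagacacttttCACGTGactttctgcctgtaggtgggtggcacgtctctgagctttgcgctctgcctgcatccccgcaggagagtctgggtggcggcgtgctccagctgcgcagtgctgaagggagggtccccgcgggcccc

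Hspa5 held 4 CCAAT boxes, 1 GC box and 1 AP-1 site, and Cdk1 held 3 CCAAT boxes and 2 GC boxes. The ratio of observed to expected CpG was 0.901 in the Hspa5 promoter and 0.965 in that of Cdk1. In Chst7 it was 0.412, with 2 GC boxes and 1 CCAAT box. In Myh6 it was 0.0833, with only 2 CpG in the 300 bases, a TATA box and a TEAD site. The Ccr1 promoter held 1 CpG and no match to any of the 9 motifs, and its region covered 217 of the 300 bases. At Fbln1 the region covered 98 of the 300 bases, and the E-box lay outside it. A match is a description of letters, not a site shown to be bound.

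The deposited lists held 74402 and 66165 peaks in siChst7 replicates 1 and 2, against 73902 and 75696 peaks in siControl replicates 1 and 2, and the list of siChst7 replicate 2 was the shortest. Read totals are unknown from these files. The lowest −log10 q was 2.02 and 2.00 in the siChst7 lists, against 2.01 and 2.00 in the siControl lists. Of the fibroblast markers Col1a1, Col1a2, Postn, Thy1, Twist1, Pdgfrb and Prrx1, all but Prrx1 had a member region called in all 4 libraries. Of the cardiomyocyte markers, Myh6, Tnnt2, Ttn and Nppa had one, and Actc1 and Actn2 had none in any library. Of the endothelial markers Pecam1, Cdh5 and Kdr, none had a region at either end in any library. Of the immune markers, Spi1 had a member called in all 4 libraries, Cd68 had only a region shared with another gene and Ptprc had none. Of the neural markers, Snap25 had a member, though not in all 4 libraries, and Dcx and Olig2 had none. Of the epithelial markers, Krt8 had a member called in all 4 libraries and Epcam and Cdh1 had none. Further genes of these cell types, such as Lmo2, Cd14, Tubb3 and Wt1, also had members in all 4 libraries and are counted with their lists below. Accessibility at a gene end is not expression.

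Most members were open in every library. Of the 12547 members, 10264 (81.8%) held a peak in all 4 libraries, against 62.0% of all 90202 regions, 57.8% of the regions at no protein-coding gene end and 91.0% of the regions at ends of 2 or more genes. A further 707 members were called in 3 libraries, 569 in 2 and 1007 (8.03%) in only 1. The rule itself bears on this, as a wider region reaches a gene end more easily and a region that collects peaks from more libraries is wider. Within bins of equal width the members were still called in all 4 libraries more often than the regions at no gene end in each bin under 1500 bp. The shares were 7.07% of members and 4.18% of regions at no gene end from 180 to under 300 bp, 54.6% and 44.6% from 300 to under 500 bp, and 90.7% and 86.0% from 500 to under 750 bp. From 750 to under 1000 bp they were 98.6% and 96.1%, and from 1500 bp upward 99.9% and 100%. The replicates of a group shared most members, 10505 in siChst7 (92.5% and 96.7% of the members called in replicates 1 and 2) and 10960 in siControl (95.0% and 94.8%), and pairs of 1 siChst7 and 1 siControl library shared 10554 to 10849.

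**Figure D1:**
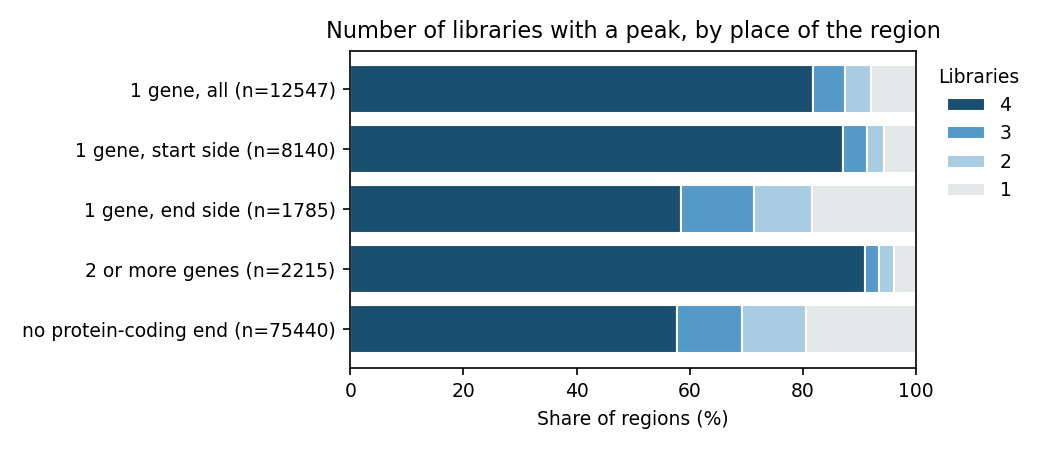
Share of regions (x axis, %) with a peak in 4, 3, 2 or 1 of the libraries, for members of all kinds, members on the start side, members on the end side, regions at ends of 2 or more genes and regions at no protein-coding gene end (rows, with the number of regions). Start-side members were called in all 4 libraries in 87.1% of cases, end-side members in 58.4%, close to the 57.8% of regions at no gene end.

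In each library the member peaks were wider and ranked higher than the other peaks of the same list. Their median width was 733.5 and 705 bp in siChst7, against 729 and 725 bp in siControl. Their median fold enrichment, the authors' ratio of the signal at a peak's summit over the background around it in that library, was 9.55 and 9.89 in siChst7, against 9.87 and 10.1 in siControl. By −log10 q the median member peak stood at percentile 77.1 and 76.5 of its own list in siChst7, against 77.4 and 78.3 in siControl, where 100 is the strongest peak. Fold enrichment and −log10 q belong to 1 list each, so values of different libraries are set side by side below without a test. Averaged over the 4 libraries, member peaks exceeded the rest of the list by 272 bp in median width (260 to 284 bp), by 2.20 in median fold enrichment and by 31.5 percentile points in rank (30.9 to 32.5), higher in 4 of 4 libraries for each. A two-sided exact sign-flip permutation test over the 4 libraries gave p = 0.125 for each of them, the smallest p that 4 pairs allow, so this design cannot pass 0.05. Regions at ends of 2 or more genes ranked higher still, with member peaks 11.6 percentile points and 163 bp below them (exact p = 0.125, lower in 4 of 4 libraries). Although members made up 15.7% to 17.0% of the lists, they held 52.0% and 52.0% of the top 1% of peaks in siChst7, against 52.2% and 54.1% in siControl, and 7.17% to 9.12% of the bottom 10%.

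**Figure D2:**
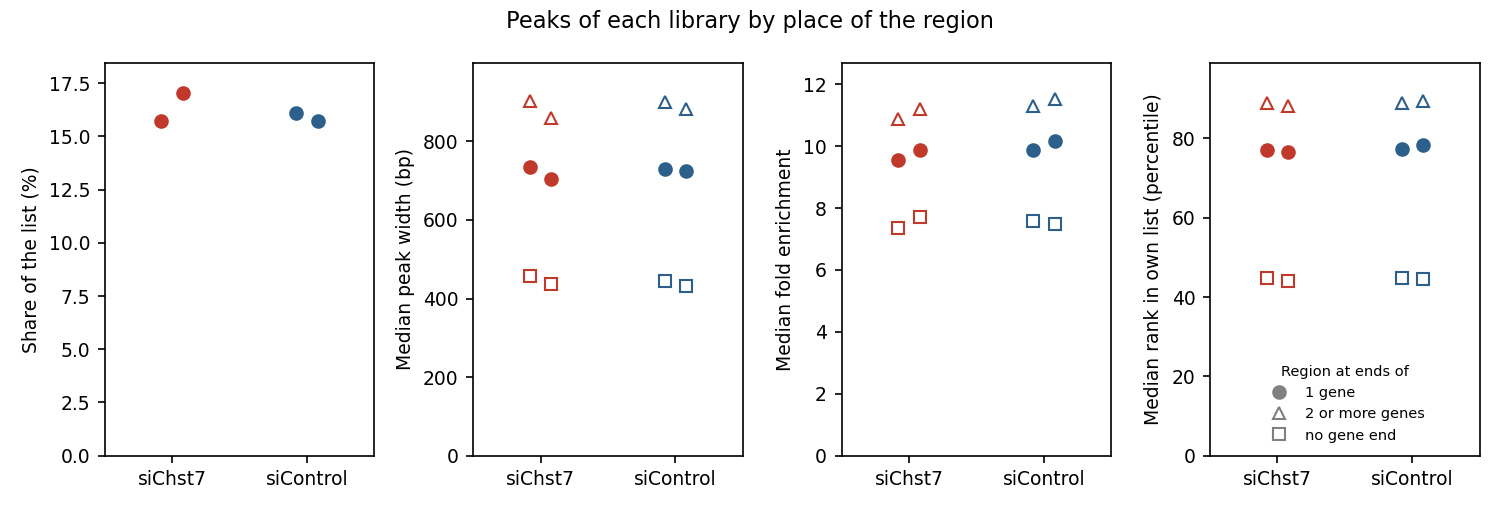
Share of each list in member regions, median peak width, median fold enrichment and median rank by −log10 q (y axes), for siChst7 and siControl (x axis), with 1 point per library, filled for members, triangles for regions at ends of 2 or more genes and squares for regions at no gene end. In each library members lie between the other classes in width, fold enrichment and rank, and the siChst7 and siControl points of members lie close together.

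The regions varied with the side of the gene they lay on. Members on the start side had a median region width of 877 bp, against 485 bp on the end side and 485 bp for regions at no gene end. Over the 4 libraries the median peak of the start side was 782.5 bp wide with a fold enrichment of 10.6 at percentile 82.5, against 437.6 bp, 7.20 and percentile 48.3 on the end side (higher in 4 of 4 libraries for each, exact p = 0.125). Regions that lay over a gene end numbered 7405 (59.0%), and 94.8% of them were called in all 4 libraries. Those that began 1 to 250 bp from the end were called in all 4 in 68.4% of cases, and those more than 750 bp away in 57.8%. On the start side, 96.0% of the 5640 regions over the start were called in all 4 libraries, and on the end side 70.7% of the 280 regions over the transcript's end. Median region width fell in the same order, at 960, 563 and 479.5 bp with distance. It was 973 bp over the start and 625 bp over the transcript's end. The part of width in these shares was not tested. End-side members lay more often beyond the gene (876 of 1785, 49.1%) than over its end (15.7%), whereas 69.3% of start-side members lay over the start.

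The summit of a start-side region lay just upstream of the transcription start in every library. Over the 7091 start-side members called in all 4 libraries, the median summit was 44 and 42 bp upstream in siChst7, against 43 and 42 bp upstream in siControl. Between 64.2% and 64.5% of the summits lay upstream, and 69.3% to 70.4% within 250 bp of the start. The libraries overlapped along the whole profile.

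**Figure D3:**
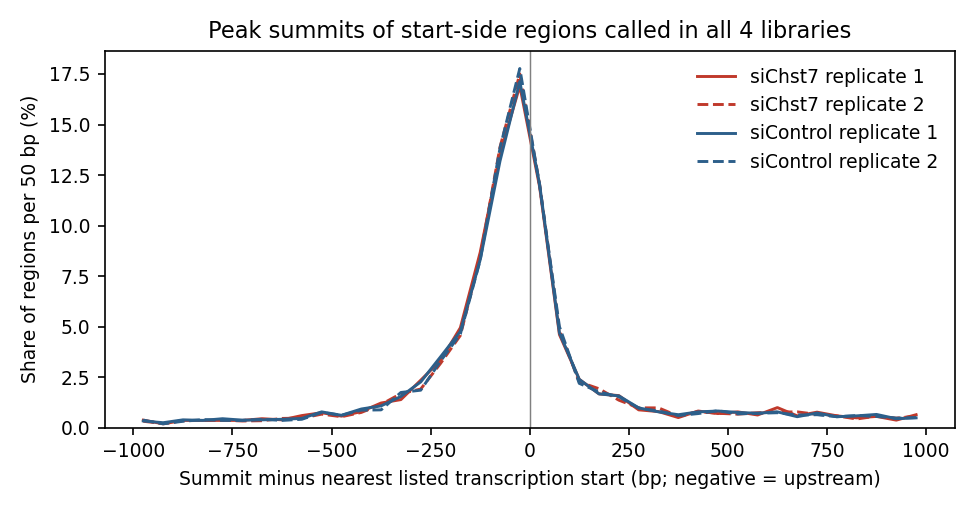
Distance of the peak summit from the nearest listed transcription start (x axis, bp, negative upstream) against the share of regions per 50 bp (y axis, %), for the 7091 start-side members called in all 4 libraries, with 1 line per library. The lines of both siChst7 and both siControl libraries peak just upstream of the start and run together.

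The members of highest rank were not all promoters. By mean rank the first was a region of 405 bp inside the end of Lars2, the mitochondrial leucyl-tRNA synthetase (chr9:123461793-123462197, 478 bp from the end), with a fold enrichment of 42.6 and 43.7 in siChst7, against 43.3 and 44.1 in siControl. Its −log10 q was 4393 and 3661 in siChst7, against 4425 and 4533 in siControl, while the region over the start of Lars2 had 210 and 157 in siChst7, against 216 and 231 in siControl. The second lay 739 bp beyond the end of Wls, the carrier that exports Wnt proteins, with a fold enrichment of 36.8 and 37.2 in siChst7, against 36.7 and 38.4 in siControl. The third, 549 bp inside the end of the predicted gene Gm40469, had 20.5 and 21.9 in siChst7, against 21.9 and 21.5 in siControl. All 3 were end-side regions, and the next 7 by rank lay on the start side. They were those of Sspn (sarcospan, a protein of the dystrophin complex), Gna12 (a G protein subunit), Oaz1 (an inhibitor of polyamine synthesis), Abcf2, Limk1 (a kinase of the actin cytoskeleton), Hspa5 and Hjurp (a chaperone of centromeric histone). At Sspn the region was only 271 bp wide and lay 884 bp inside the gene, with a fold enrichment of 30.5 and 31.7 in siChst7, against 32.5 and 33.4 in siControl. Hspa5 had 12.5 and 12.7 in siChst7, against 13.2 and 13.9 in siControl, and Gna12 had 21.1 and 20.8 in siChst7, against 22.4 and 22.4 in siControl. At Sspn, Hspa5 and Gna12 both siChst7 values lay below both siControl values. The −log10 q of Lars2 stood far above that of Wls, which had 1095 and 911 in siChst7, against 1129 and 1105 in siControl. Whether reads that fit several places add to the Lars2, Wls, Gm40469 or Sspn regions was not tested. The sources used here do not say whether an exclusion list was applied.

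The widest members had modest fold enrichment but mostly a high rank by −log10 q. The widest member called in all 4 libraries lay over an end of Tmem259, at 2960 bp, followed by Ssbp4 (2840 bp), Cpt1a (2835 bp), Tll1 (2834 bp) and Arid3a (2802 bp). At Tmem259 the fold enrichment was 4.74 and 4.73 in siChst7, against 5.02 and 4.86 in siControl, below the median member of its library in each. Cpt1a, which brings fatty acids into mitochondria for oxidation, had 6.41 and 7.64 in siChst7, against 6.59 and 6.68 in siControl. By mean rank Tmem259 stood at percentile 91.1, Arid3a at 88.4, Cpt1a at 80.5, Ssbp4 at 78.5 and Tll1 at 65.01. The narrowest members called in all 4 libraries were at Lasp1 (222 bp), Tmem95 (222 bp) and H3c11 (226 bp), at percentiles 42.65, 42.4 and 48.2. Over all members the median width was 803 bp (interquartile range 501.5 to 1089 bp), and 32.1% were over 1 kb wide.

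Of the 21627 protein-coding genes, 9946 had at least 1 member region, 7658 of them 1, 1992 of them 2, 279 of them 3 and 17 of them 4. A start-side region without an end-side one was called in all 4 libraries at 6026 genes, an end-side region without a start-side one at 517, and both at 492. A further 2955 genes had only regions that they share with another gene, and 8726 had none at either end. The genes with 4 members included Foxc1, Gdnf, Bhlhe40, Fras1 and Smurf1. At Foxc1, a forkhead transcription factor of mesoderm, the region over the start had a fold enrichment of 13.9 and 13.8 in siChst7, against 13.6 and 12.2 in siControl. Its 3 companions lay between 1.93 and 2.85 in the libraries that held them. Gdnf, a secreted neurotrophic factor, was the reverse. Its region 577 bp beyond the end had 12.2 and 10.3 in siChst7, against 11.3 and 11.0 in siControl, and the one over the start 4.89 and 4.88 in siChst7, against 5.06 and 4.64 in siControl. By chromosome the share of genes with a member ran from 30.8% on X to 55.9% on chromosome 18.

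Start-side regions followed the CpG content of the promoter. Of the 17267 protein-coding promoters with a sequence here, 6518 had a start-side member called in all 4 libraries, with a median GC content of 61.0% and a median CpG ratio of 0.769. The 6936 promoters of genes with no region at either end had 48.3% and 0.229, and all promoters 56.3% and 0.586. The share of promoters with a start-side member in all 4 libraries was 5.70% at a CpG ratio under 0.1, 34.2% from 0.4 to 0.5, and 59.2% from 0.8 to 0.9. Above 1.0 it was 58.3%. A start region shared with a neighbouring gene is not a member, but its promoters stay among the 17267. The 2387 promoters with such a shared region had a median CpG ratio of 0.802. The shares above are thus not shares of promoters with any open start region.

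**Figure D4:**
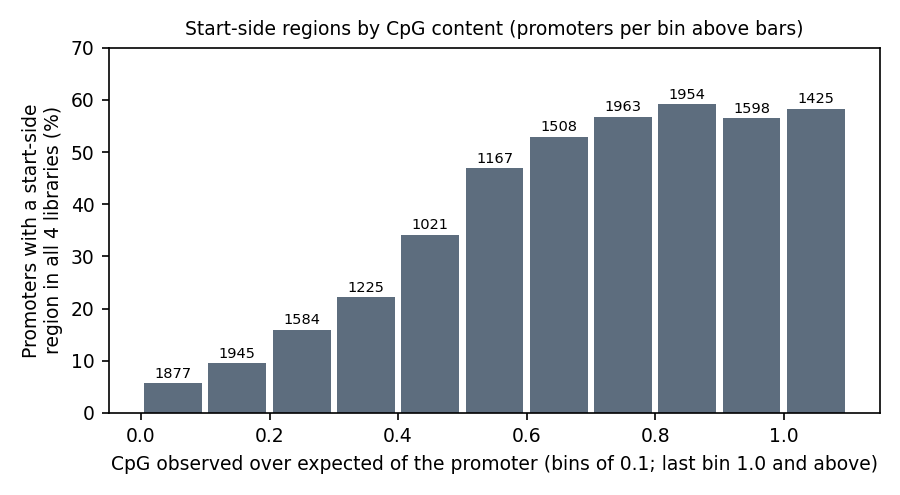
Share of promoters with a start-side member called in all 4 libraries (y axis, %) by the ratio of observed to expected CpG of the 300 bases around the start (x axis, bins of 0.1, the last 1.0 and above), with the number of promoters over each bar. The share climbs from 5.70% in the lowest bin to 59.2% at 0.8 to 0.9 and is level from 0.7 upward. Promoters with a start region shared with another gene are part of the totals.

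Motif content differed between these sets of promoters. GC boxes were found in 67.0% of the promoters with a start-side member in all 4 libraries, against 46.9% of all promoters and 22.7% of those of genes with no region. ETS cores were in 17.0% of them, against 12.1% and 3.68%, E-boxes in 10.2%, against 8.01% and 4.90%, and CREs in 3.44%, against 2.36% and 1.10%. TATA boxes were in 7.10% of the promoters with a start-side member, against 13.4% of all promoters and 22.3% of those with no region. GATA sites followed the same order, with 5.77%, 9.99% and 15.7%, as did AP-1 sites with 5.09%, 7.09% and 9.88% and TEAD sites with 11.95%, 13.3% and 14.9%. The CCAAT box stood at 40.1%, 39.6% and 40.0%. The part of base composition in these shares was not tested.

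Families of the cell's basic machinery, and the dual-specificity phosphatases, had a region of their own more often than the background. Of all 21627 protein-coding genes, 8873 (41.0%) had a member called in all 4 libraries, at a median best rank of percentile 84.9. Among dual-specificity phosphatases, some of which switch off MAP kinases, it was 21 of 24 genes, led by Dusp6. Translation initiation factors and proteins named for them had 40 of 55, and proteasome subunits 28 of 39. Splicing ribonucleoproteins, counted with Lsm and Srsf proteins, had 32 of 45 and cytosolic ribosomal proteins 58 of 83. Zinc finger proteins named Zfp had 263 of 397, ubiquitin-specific proteases 36 of 55 and Rab GTPases 37 of 59. The region over the start of Rpl27 had a fold enrichment of 18.4 and 19.9 in siChst7, against 19.4 and 20.0 in siControl, and that of the proteasome subunit Psmd5 had 13.4 and 13.2 in siChst7, against 13.8 and 13.2 in siControl. Snrpc, of the U1 splicing particle, had 25.9 and 26.2 in siChst7, against 26.1 and 26.2 in siControl. Values of both groups overlapped at Rpl27, Psmd5 and Snrpc.

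The rule of exactly 1 gene set aside many genes of some families, whose regions also lay at the end of another gene. Of 100 histone genes, 24 had a member called in all 4 libraries, and 48 had only a region that they share. Respiratory complex I subunits and assembly factors had 22 of 49, with 23 only shared, and mitochondrial ribosomal proteins 41 of 78, with 31 only shared. Thus 28 of 100 histone genes and 3 of 49 complex I genes had no region at either end, against 8726 of all 21627 genes (40.4%). Protocadherins had 11 of 69, with 15 only shared.

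Odorant and vomeronasal receptors, defensins and keratins had few such regions. Of 1110 odorant receptor genes, 18 had a member and 10 of these were called in all 4 libraries, 3 on the start side and 6 on the end side. The strongest lay 405 bp beyond the end of Olfr70, with a fold enrichment of 13.3 and 14.7 in siChst7, against 15.2 and 14.6 in siControl. Of 355 vomeronasal receptor genes 1 had such a region, over the start of Vmn2r29, with 26.7 and 25.04 in siChst7, against 29.1 and 28.3 in siControl, so both siChst7 values lay below both siControl values. Defensins had 3 of 71, keratins and keratin-associated proteins 12 of 110, cytochrome P450 enzymes 15 of 99 and potassium channels 19 of 94. Other families of receptors and signals lay near or above the background of 41.0%, with 20 of 39 laminin and integrin genes (51.3%), 14 of 29 Wnt and Frizzled genes (48.3%) and 11 of 26 fibroblast growth factor genes and receptors (42.3%). Collagens, with 16 of 44 (36.4%), among them Col1a1, Col5a2 and Col6a2, were close to the background in share, and their median best rank of percentile 55.5 lay below that of all genes. Genes of 1 family can share sequence, and how reads that fit several copies were placed is not given in the sources used here.

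**Figure D5:**
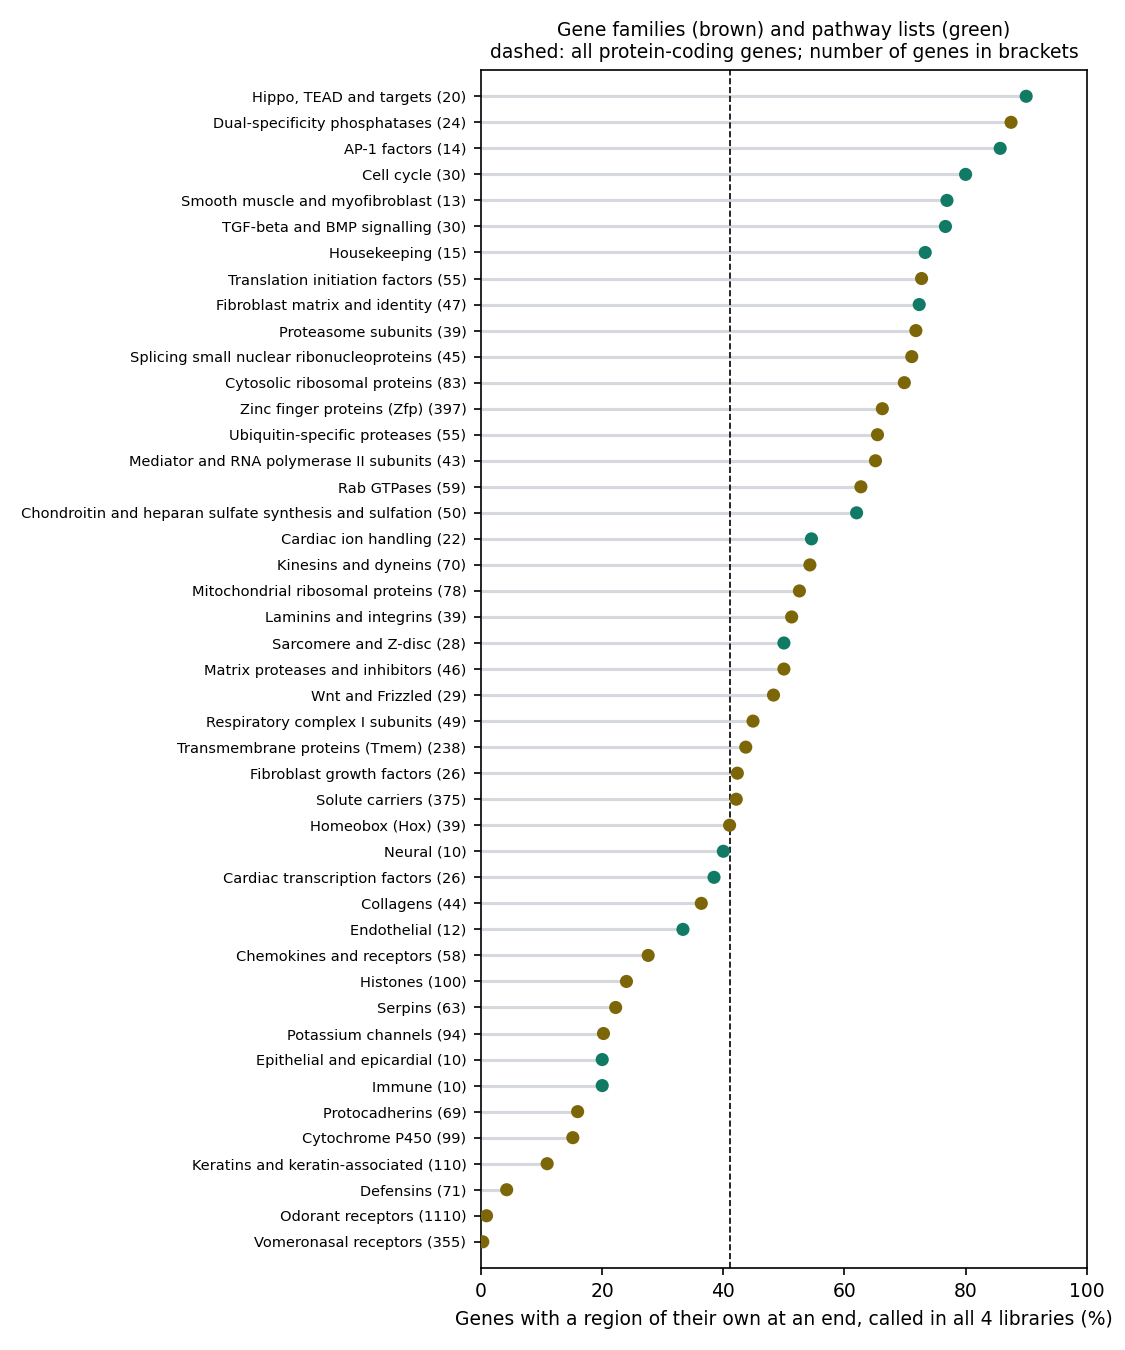
Share of the genes of each family or list (rows, number of genes in brackets) with a region of their own at an end called in all 4 libraries (x axis, %), brown for families and green for pathway lists, with the 41.0% of all protein-coding genes as a dashed line. The Hippo list (90.0%) and dual-specificity phosphatases (87.5%) stand at the top and vomeronasal (0.282%) and odorant receptors (0.901%) at the bottom.

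The pathway of Chst7 was mostly open. Of 50 genes that build and sulfate chondroitin and heparan sulfate, 31 had a member called in all 4 libraries (62.0%, against 41.0% of all genes), 6 had only shared regions and 13 had none, among them Chst3, Chst15 and Xylt1. At Chst7 itself the region, which begins 193 bp inside the outermost RefSeq end of the gene and covers the promoter shown above, had a fold enrichment of 11.97 and 11.996 in siChst7, against 15.0 and 13.1 in siControl, and a −log10 q of 99.8 and 78.9 in siChst7, against 153 and 113 in siControl. Both siChst7 values lay below both siControl values, and an siRNA acts on the transcript, so the region is no check of the knockdown. Papss1, which makes the sulfate donor, ranked highest in the list with 17.2 and 17.2 in siChst7, against 17.9 and 18.8 in siControl. At Papss1, too, both siChst7 values lay below both siControl values. Glce, the epimerase of heparan sulfate, had 15.4 and 15.7 in siChst7, against 15.7 and 16.3 in siControl. Chst12, a chondroitin sulfotransferase, had a region at both sides: the start had 10.6 and 11.8 in siChst7, against 11.1 and 11.6 in siControl, and the end 10.3 and 11.8 in siChst7, against 9.30 and 11.8 in siControl. Chst11, another chondroitin sulfotransferase, had 5.74 and 6.65 in siChst7, against 6.46 and 6.82 in siControl. At Dse, the epimerase that turns chondroitin into dermatan sulfate, the start region had 10.9 and 12.3 in siChst7, against 12.8 and 12.6 in siControl, separate in the same direction. A second Dse region, 575 bp inside the end, was called only with siControl, at 5.03 and 8.17.

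Cardiac genes had members at shares near or somewhat above the background. Of 26 cardiac transcription factor genes, 10 had a member called in all 4 libraries (38.5%, against 41.0% of all genes), namely Tbx3, Hey2, Tbx18, Ppargc1a, Ppara, Gata6, Mef2d, Myocd, Tbx2 and Tbx1. None of the 3 induced factors had one: Mef2c, Gata4 and Tbx5 had no region within 1 kb of either end, nor had Nkx2-5, Hand2, Isl1 or Tbx20. Starts more than 1 kb inside the outermost ends of a gene were not counted. Tbx3, a T-box factor of the conduction system, had a fold enrichment of 9.28 and 9.69 in siChst7, against 9.84 and 9.60 in siControl, at a mean rank of percentile 99.4. Gata6 had 8.61 and 11.4 in siChst7, against 10.3 and 9.43 in siControl. Sarcomere and Z-disc genes had 14 of 28 (50.0%) and ion handling genes 12 of 22 (54.5%), and differences between these lists were not tested. Myh6 had 8.14 and 7.89 in siChst7, against 7.97 and 7.27 in siControl, in a region 2279 bp wide over its start. Tnnt2, cardiac troponin T, had 3 regions, and the one over its start had 9.05 and 8.22 in siChst7, against 7.88 and 8.57 in siControl. Kcnj2, an inward rectifier potassium channel, led the ion handling genes with 12.8 and 11.7 in siChst7, against 13.0 and 12.6 in siControl. Whether DNA of the reporter or of the induced copies adds to these peaks was not tested.

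The median best rank of the genes with a member in all 4 libraries was percentile 75.1 in the sulfation list, 74.6 in cardiac transcription factors, 73.7 in sarcomere and 58.4 in ion handling genes, against 84.9 for all genes.

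Fibroblast genes and several signalling lists had a member called in all 4 libraries at a larger share of their genes than the 41.0% of all genes. Of 47 fibroblast matrix and identity genes, 34 had one (72.3%), and 10 had none at either end, among them Col3a1, Pdgfra, Lum and Tcf21. Col1a1, a chain of type I collagen, had 7.42 and 6.82 in siChst7, against 7.53 and 7.95 in siControl. Thy1, a surface marker of fibroblasts, had 7.87 and 8.66 in siChst7, against 10.8 and 9.57 in siControl, and both siChst7 values lay below both siControl values. Snai1, a transcription factor of mesenchymal cells, had 3 members, and the strongest, over its start, had 10.3 and 11.2 in siChst7, against 10.8 and 11.2 in siControl. Of 20 genes of the Hippo pathway, TEAD factors and their targets, 18 had a member in all 4 libraries and the other two, Lats1 and Tead3, only shared ones. Nf2, an upstream inhibitor of YAP, had 18.7 and 18.5 in siChst7, against 18.6 and 18.03 in siControl, and the target Ccn2 had 8.77 and 9.24 in siChst7, against 8.98 and 8.58 in siControl. AP-1 factors had 12 of 14, without Batf and Batf2, and Jund led with 10.4 and 10.4 in siChst7, against 9.93 and 9.76 in siControl. At Jund both siChst7 values lay above both siControl values. Cell cycle genes had 24 of 30, led by Cdk1 with 18.8 and 17.98 in siChst7, against 18.8 and 17.9 in siControl. TGF-beta and BMP genes had 23 of 30, with Tgfbr2 at 14.9 and 15.1 in siChst7, against 15.7 and 14.6 in siControl, and no member at the ligand genes Bmp2, Bmp4 and Bmp7. The median best rank was percentile 77.0 for the fibroblast list, 90.7 for Hippo and TEAD, 91.5 for AP-1, 88.1 for the cell cycle and 82.0 for TGF-beta and BMP genes. Against percentile 84.9 for all genes, the fibroblast and the TGF-beta and BMP lists stood lower and the Hippo, AP-1 and cell cycle lists higher.

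Among lists of other cell types, smooth muscle and myofibroblast genes had a member called in all 4 libraries at 10 of 13 genes (76.9%, against 41.0% of all genes), and Cald1 and Lmod1 ranked highest among them. Endothelial genes had 4 of 12 (33.3%; Lmo2, Erg, Flt1 and Tal1, at a median percentile of 34.7) and neural genes 4 of 10 (40.0%), both near the background. Immune genes had 2 of 10 (20.0%; Cd14 and Spi1) and epithelial and epicardial genes 2 of 10 (20.0%; Krt8 and Wt1). With members called in any number of libraries counted, neural genes had 6 of 10, immune genes 5 of 10, epithelial and epicardial genes 5 of 10 and endothelial genes 4 of 12, against 46.0% of all genes. At Spi1, a transcription factor of blood cells, the region 234 bp inside the gene had 8.56 and 8.47 in siChst7, against 8.04 and 8.40 in siControl, so both siChst7 values lay above both siControl values. Housekeeping genes had 11 of 15, with 3 only shared and none at Ywhaz. In bulk libraries fewer cells of a type and less open DNA per cell cannot be told apart.

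Between the siRNAs, the libraries overlapped in the share, width and relative fold enrichment of member peaks, and both siChst7 libraries lay below both siControl libraries in rank. Members made up 16.4% ± 0.914 of the siChst7 lists and 15.9% ± 0.274 of the siControl lists (SD, n = 2 each, difference 0.472, exact permutation p = 0.667). Median width was 719 ± 20.2 bp in siChst7 and 727 ± 2.83 bp in siControl (SD, n = 2 each, difference −7.75 bp, exact p = 1). The median fold enrichment over that of the whole list was 1.23 ± 0.0102 in siChst7 and 1.26 ± 0.0313 in siControl (difference −0.0288, exact p = 0.667). Median rank was 76.8 ± 0.391 in siChst7 and 77.8 ± 0.611 in siControl (difference −1.01, exact p = 0.333). These are 4 two-sided tests over 2 against 2 libraries, whose smallest possible p is 0.333, so none could pass 0.05 before or after adjustment. Without siChst7 replicate 2, the library with the shortest list, the difference in share was −0.170 and that in width 6.75 bp, both of the opposite sign. Of the 10264 members called in all 4 libraries, 31.5% ranked lower in both siChst7 lists than in both siControl lists, and 8.01% ranked higher in both, against 26.9% and 12.5% of all regions called in all 4. By fold enrichment the shares were 33.8% and 7.59% of members, against 29.8% and 11.3% of all regions, so separate values at a single member, such as those of Chst7, Thy1 or Hspa5, were a frequent pattern here. Such values were not pointed out at every gene named. The lower side was also the one that holds the shortest list, and the part of list length in this was not tested.

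Few members were called with 1 siRNA only. Of the 12547 members, 47 (0.375%, against 1.24% of all regions) held a peak in both siChst7 libraries and in no siControl library (siChst7-specific), and 183 (1.46%, against 2.84% of all regions) held one in both siControl libraries and in no siChst7 library (siControl-specific). Of the members called in exactly 2 libraries, the pairs of 1 siChst7 and 1 siControl library held 51 to 120 each. Of the 9946 genes with a member, 47 held a siChst7-specific one and 181 a siControl-specific one. Among regions from 180 to under 300 bp, 1.25% of members were siChst7-specific and 6.23% siControl-specific, against 1.95% and 5.03% of regions at no gene end. From 300 to under 500 bp it was 1.41% and 4.66%, against 2.63% and 5.72%. Above 750 bp there were 1 siChst7-specific and 3 siControl-specific members. Leaving out siChst7 replicate 2 gave 303 siChst7-specific and 324 siControl-specific members, and leaving out siChst7 replicate 1 gave 163 and 555. Without siControl replicate 1 they were 149 and 520, and without siControl replicate 2 they were 144 and 505, each with 1 library on the reduced side. With lists of equal length they were 69 and 118.

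By definition group-specific members lack a call in both libraries of the other siRNA, which itself favours weak and narrow peaks. Their peaks ranked low, and most of these members lay off the gene end. Their median peak was 261.5 bp wide at percentile 10.2 of its list in siChst7 and 264 bp at percentile 15.8 in siControl, against 768 bp at percentile 80.7 for members called in all 4 libraries. A gene end lay under 8 of the 47 siChst7-specific and 37 of the 183 siControl-specific members, against 68.4% of members called in all 4. Of all members called in exactly 2 libraries, 105 of 569 lay over a gene end, and of those called in 1, 131 of 1007. This place was thus not particular to group-specific members. Another member of the same gene was called in all 4 libraries for 30 of 47 siChst7-specific members and 85 of 183 siControl-specific ones. The same was not counted for other members called in few libraries, so it is not shown to be particular to group-specific ones. The nearest region called in all 4 libraries was within 1 kb of 22 of 47 siChst7-specific members (46.8%), of 51 of 183 siControl-specific ones (27.9%) and of 28.1% of the members called in a single library.

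The siChst7-specific members of highest rank were at Olfr1387, Snx1, Psmc3, Cpd and Steap2. The region 146 bp beyond the end of the odorant receptor gene Olfr1387 had a fold enrichment of 8.92 and 8.46 in siChst7. Snx1, a sorting protein of endosomes, had 7.49 and 7.58 in siChst7 at a region 370 bp inside its end, while its start region, called in all 4 libraries, had 10.0 and 9.82 in siChst7, against 9.26 and 10.3 in siControl. Psmc3, an ATPase of the proteasome, had 2.73 and 3.03 in siChst7 beside a region over the gene end with 8.08 and 8.22 in siChst7, against 9.13 and 8.89 in siControl. Among the chemokine genes, Ccr1 had a region over its start with 6.61 and 6.85 in siChst7, and Ccl17 one 257 bp inside its start with 3.41 and 3.51. Cdc20, an activator of mitotic exit, had one 553 bp outside its start with 2.32 and 3.00 in siChst7, beside a start region of 17.1 and 16.8 in siChst7, against 17.7 and 19.1 in siControl. Of the 47, 16 kept the same call under each of 3 filters, a −log10 q of at least 5, peaks at least 200 bp wide and lists of equal length. These included Snx1, Psmc3, Ccr1, Ccl17, Olfr1387, Jak1, Hdac5 and Vash1, but not Cdc20, Cpd or Steap2. At a −log10 q of at least 10 only 5 of the 47 kept the call, those at Snx1, Psmc3, Ccr1, Olfr1387 and Steap2.

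The siControl-specific members of highest rank were at Skil, Fam83a, 4921524L21Rik, Eif5 and Rab5c. Skil, a repressor of TGF-beta signalling, had a region of 185 bp over a gene end with a fold enrichment of 6.99 and 7.25 in siControl, between 2 regions of the same gene that were called in all 4 libraries. Those had 7.29 and 7.07 in siChst7, against 8.50 and 6.77 in siControl, and 3.38 and 3.12 in siChst7, against 4.56 and 3.79 in siControl. Fam83a had 9.58 and 12.5 in siControl, and Rab5c, a GTPase of early endosomes, had 4.09 and 3.67 in siControl beside a start region of 16.3 and 15.5 in siChst7, against 16.8 and 18.3 in siControl. Fibroblast genes among them were Fbln1, with 5.17 and 6.69 in siControl over its start, and Dcn, the proteoglycan decorin, with 5.03 and 5.59 in siControl at 384 bp outside the gene. These 2 genes had no other member called in all 4 libraries. Myog, a myogenic transcription factor, had 5.07 and 5.54 in siControl at 821 bp inside its start, Myh11 of smooth muscle 6.49 and 6.68 in siControl, and Adamts2, a procollagen protease, 5.44 and 4.98 in siControl over its start. Of the 183, 66 kept the same call under each of the 3 filters, among them Fbln1, Dcn, Dse, Myog, Myh11, Adamts2, Fam83a and Rab5c, but not Skil or Eif5. At a −log10 q of at least 10 only 41 of the 183 kept the call. Myh11, Fam83a, Rab5c, Skil and Eif5 were among these, and Fbln1, Dcn, Dse, Myog and Adamts2 were not. A region without a call can still hold signal below the threshold of the list, which these files do not show.

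At the limit of 1 kb, the regions just inside were a region at Acbd3 and one at Calca, both 1000 bp from the gene end and each called in 1 library. Just outside were a region near Ptprf, called in 2 libraries, and one near Tcea2, called in all 4 with a fold enrichment of 8.41 and 9.002 in siChst7, against 7.70 and 8.50 in siControl.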

How the data were processed

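Bulk ATAC-seq was measured in 4 libraries, 2 with siChst7 and 2 with siControl, and deposited as 1 narrowPeak list per library on mm10. Per the submitters' processing notes, Bowtie, SAMtools, MACS3, bedtools and HOMER were used. The sources used here do not give versions, nor the handling of duplicates, mitochondrial reads, reads that fit several places, Tn5 offsets or exclusion lists. Each peak carries the authors' score, which is 10 times its −log10 q, the fold enrichment deposited as a ratio to the local background of that library, and the −log10 p and −log10 q deposited for the summit, of which −log10 q was used. The summit offset deposited with each peak gave its summit. These values describe or rank peaks within a list.

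Peaks on chromosomes 1 to 19 and X were merged with Python 3.11.15, pandas 2.3.3 and numpy 2.4.6. Gene ends came from a RefSeq table of GRCm38.p6 and strands from RefSeq promoter sequences, which cover 17267 of 21627 protein-coding genes, so exons and introns were not told apart. A group-specific region was called in both libraries of 1 siRNA and neither of the other. Tests were exact permutations over libraries, and regions were never taken as replicates. Placement at gene ends and call patterns were checked on simulated peaks with the same coordinates in each library that held them. The merging of partly overlapping peaks was not tested. The members, the 30 gene families, the 15 lists and the rule for named genes were chosen with earlier results of these data known. Named genes were the 10 members of highest mean rank, the 5 group-specific members of highest rank per siRNA, the 5 widest and 3 narrowest members, the highest and lowest of each list and its group-specific members, and Chst7, Mef2c, Gata4, Tbx5 and Myh6. Other genes named were chosen after their values were seen. Alternatives were distances of 500 and 2500 bp, summit windows of 200 bp, a −log10 q of at least 5 or 10 and peaks of at least 200 bp. Others were lists of equal length, leaving out regions at non-coding gene ends, leaving out each library and the replicate block.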

Additional observations from a re-analysis of the deposited data

How the results depend on the processing

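Under other settings 15 counts moved by over 1.5 times and 5 differences changed sign; of the other 73 values, counts stayed within 1.5 times and differences kept their sign, though not always their size. At a distance of 500 bp the siChst7-specific and siControl-specific members were 25 and 119, and at 2500 bp they were 103 and 320. Summit windows of 200 bp gave 138 siChst7-specific members, and a −log10 q of at least 10 gave 26. Lists of equal length gave 69 siChst7-specific and 118 siControl-specific members. These were not all the same regions as before. Of the 47 siChst7-specific members, 5 kept their call at a −log10 q of at least 10 and 25 with lists of equal length. Of the 183 siControl-specific members, 41 and 81 did. The difference in width turned to 1.5 bp at 2500 bp. With lists of equal length the difference in share turned to −0.123 and that in relative fold to 0.00725. Leaving out each library in turn gave 144 to 303 siChst7-specific and 324 to 555 siControl-specific members. Without siChst7 replicate 2 the difference in share was −0.170 and that in width 6.75 bp, and over the 4 libraries left out these ran from −0.170 to 1.12 and from −21.5 to 6.75 bp. The difference in relative fold ran from −0.0511 to −0.00760 and that in rank from −1.42 to −0.574. The cause of these shifts was not tested.

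Replicate differences did not go together by replicate number: over 10264 members the correlation of the replicate differences of the siRNAs was −0.0128 in rank and 0.0142 in fold. Whether libraries of the same number were paired in the experiment is not given in the labels. The replicate block changes only how labels are permuted, so the differences are the same by construction and count among the 73 values above. They were 0.472 in share, −7.75 bp in width, −0.0288 in relative fold and −1.01 in rank. Exact permutation within replicate numbers gave p = 1, 1, 1 and 0.5, where 0.5 is the smallest p possible. Depth is unknown, so a missing call is not a closed region.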
